A study of Mus musculus with 6 samples.

Results

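The genes described here are 50 named genes of mouse chromosome 8, out of 23412 genes in the table, measured by RNA-seq in undifferentiated mouse embryonic stem cells (mESCs) of 2 lines. They lie between 9.97 Mb and 125 Mb of the chromosome (build GRCm38) and were chosen because the median gene of this autosome was lower in HN mESCs than in R1 mESCs. The choice thus used the HN minus R1 difference of the same 6 libraries, so every value of that difference below is a description with no test. The question was whether the lower level was even along the chromosome and alike on each of 3 collection dates. R1 is the wild type line, and HN is the Htt-null line, made by deleting the promoter and exon 1 of both copies of Htt, the gene for huntingtin. Both lines carry the strain label 129Sv and were grown without feeder cells, in medium with leukemia inhibitory factor and the inhibitors SU5402, PD184352 and CHIR99021. Each line gave 3 libraries, and an R1 and an HN library with the same replicate number were collected on the same date. As each genotype was 1 cell line, the effect of losing Htt cannot be told apart from any other difference between these lines, and a spread between libraries is a spread between dates of culture.

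Most genes of an autosome are transcribed from both copies of the chromosome, and many genes that lie next to each other work in unrelated pathways. A shift in the level of a whole chromosome is therefore seen as a small move of many unrelated genes at once rather than as a large move of a few. Cultured mESC lines are known to change their number of chromosomes during passage, and chromosome 8 is among those most often gained. The files hold RNA only, so the copy number of chromosome 8 in either line was not analysed here.

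Between 1640391 and 3866717 reads per library lay on genes, the fewest in R1 replicate 3. Htt, on chromosome 5, had normalized counts of 230, 257 and 199 in the R1 libraries and of 18.3, 58.1 and 54.2 in the HN libraries, lower in HN as its label says. The 8 mESC markers (among them Pou5f1, Nanog and Sox2) each had a normalized count of at least 50 in every library. Their sum ran from 12129 to 17914 in R1 and from 12845 to 17304 in HN, but single markers moved in opposite directions. Zfp42 was lower in HN without overlap (2009, 2381 and 1886 in R1, 1061, 1295 and 1271.5 in HN). Nanog was higher without overlap (2440, 2303 and 1864 in R1, 2832, 2669 and 2482 in HN). Klf4 was too (340, 241 and 245 in R1, 439, 374 and 366 in HN). In the other markers of this list the lines overlapped. The sums of the 5 fibroblast markers (35.5 to 98.4 in R1, 11.3 to 65.0 in HN) and of the 5 primitive endoderm markers (31.1 to 144 and 29.8 to 121) overlapped between the lines. The sums of the 5 mesoderm markers overlapped as well (79.8 to 162 and 136 to 248). Those of the 5 neural markers did not (250 to 306 in R1, 145 to 222 in HN), but no neural marker by itself separated the lines. Tubb3, the highest of them, had 201, 269 and 133 in R1 and 82.7, 149 and 120 in HN. Sox1, the next highest, had 28.7, 23.7 and 58.0 in R1 and 32.9, 40.4 and 56.3 in HN. Thy1, the highest of the fibroblast markers, was lower in HN without overlap (35.1, 24.4 and 40.4 in R1, 13.4, 4.25 and 19.5 in HN). The part of these markers in the values of chromosome 8 was not tested. Both libraries of the third date detected more genes (20675 and 20542) than the others (18133 to 19083).

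Of the 50 genes, 49 had a mean normalized count of at least 5 and entered the comparisons, along with 703 other genes of chromosome 8, out of 14276 genes tested. Irf2, an interferon regulatory factor, was left out by this limit, with normalized counts of 0, 0 and 6.74 in R1 and 3.65, 1.42 and 5.42 in HN. For each gene the difference is the log2(normalized count + 1) of HN minus that of R1, in 1 pair of libraries or as the mean of the 3 pairs. The mean difference of the 49 genes had a median of -0.14, with a quartiles of -0.33 and -0.03, and ranged from -0.73 (Coq9) to 0.25 (Hmgb2). It was below 0 in 40 of the 49, where 51.5% of all tested genes were below 0. In these bulk libraries, a lower level in every cell and a lower level in only some of the cells cannot be told apart.

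The other 703 genes of chromosome 8 were not picked by name but belong to the chromosome whose median led to the choice, so their values are a description too. Their median mean difference was -0.22, and 79.1% of them were below 0, while the 13010 genes of the 18 other autosomes had a median of -0.00215 with 50.3% below 0. Relative to the other autosomes, the median gene of chromosome 8 outside the named genes stood at 85.7% of its R1 level in HN, and the median named gene at 91.0%. Among genes with a mean normalized count of at least 50, where counting error is smaller, these shares were 85.3% for 403 other genes and 89.1% for 43 named genes. Chromosome 8 had the lowest median of the 19 autosomes and X. Leaving out chromosome 14, whose median was 0.25 and of the opposite sign, the medians of the 17 remaining autosomes ran from -0.08 (chromosome 13) to 0.03 (chromosome 17).

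**Figure D1:**
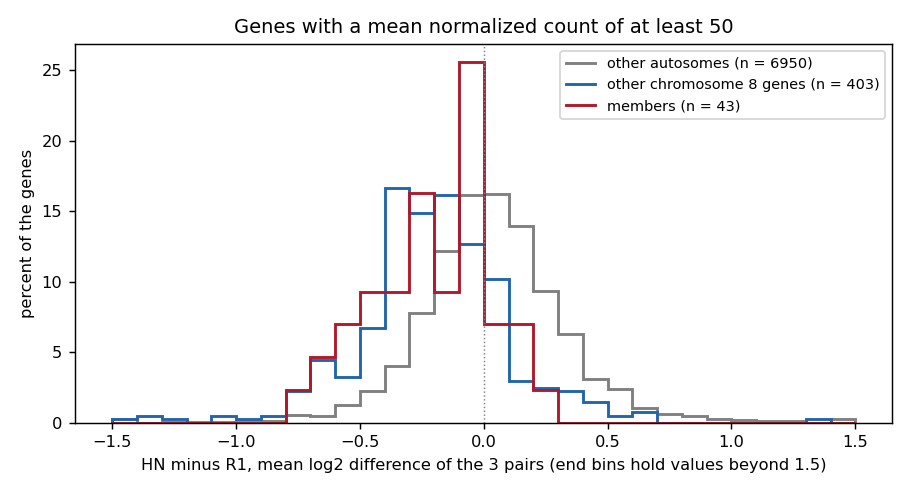
Distribution of HN minus R1 over genes with a mean normalized count of at least 50, as the percent of genes (y axis) in bins of the mean log2 difference of the 3 pairs (x axis), for 43 named genes, 403 other chromosome 8 genes and 6950 genes of the other autosomes. Both chromosome 8 curves lie to the left of the grey curve over most of their width, with 83.7% of the named genes and 79.2% of the other chromosome 8 genes below 0, against 45.5% for the other autosomes.

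No member passed the threshold of an adjusted p under 0.05 with an absolute log2 fold change above 1 in limma, either without or with the collection date as a block. The background of that threshold over all tested genes was 0.245% without the block and 1.95% with it. Every tested member had a mean difference inside this fold limit, and nothing is read from the count, since the members were chosen on this comparison. The difference was below 0 in all 3 pairs in 24 of the 49 members (background 21.1%) and above 0 in all 3 pairs in 2, Csnk2a2 and Ctcf (20.3% of all tested genes). In 6 members (Coq9, Sall1, Cog4, Brd7, Lonp2 and Dnaja2) every HN library was below every R1 library (background 5.54%), and in 0 members every HN library was above (5.23% of all tested genes). Among the other chromosome 8 genes, 284 of 703 were below 0 in all 3 pairs and 84 of 703 had HN libraries wholly below R1. A single member is measured coarsely, since counting error alone gave the mean difference a median standard error of 0.08 and the 3 pairs of a member had a median SD of 0.20. The mean was below 0 by more than 1.96 counting standard errors in 23 members and above 0 by as much in 2. Counting error leaves out the spread between cultures, and no share over all tested genes is given beside these counts. As the members were chosen on this difference, nothing is read from them.

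The dates did not give the same size of difference. The median over the 49 members was -0.27 on the first date, -0.24 on the second and -0.06 on the third, with 41, 39 and 30 members below 0. The other 703 genes of chromosome 8 had medians of -0.26, -0.29 and -0.13, while the median over the other autosomes stayed between -0.01 and 0.01 on every date. The third date thus had the smallest difference in both sets, and it remained below 0 in both.

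How small it was on the third date depended on which genes and which scaling were used. With genes of at least 50 normalized counts only, the other autosomes had a median of 0.09 on that date, and relative to it the members stood at -0.15 and the other chromosome 8 genes at -0.11. On the first and the second date the same relative medians were -0.24 and -0.29 for the members and -0.27 and -0.30 for the other genes. After quantile normalization the members' medians were -0.22, -0.26 and -0.17 on the 3 dates, and those of the other chromosome 8 genes -0.24, -0.27 and -0.14. With 1 library of each line per date, a difference between dates in the line difference leaves nothing to estimate error from and was not tested.

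**Figure D2:**
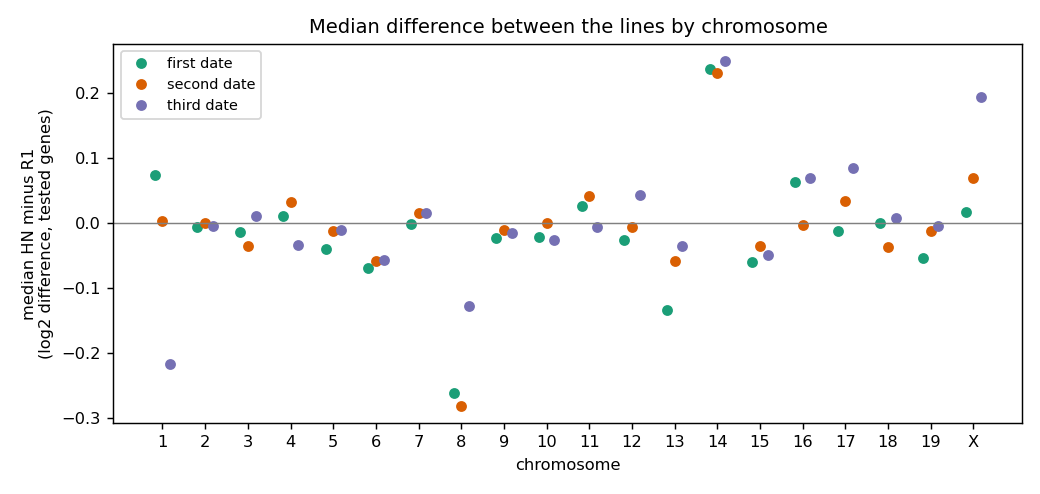
Median HN minus R1 log2 difference of the tested genes (y axis) of each chromosome (x axis), with 1 point for each collection date. Chromosome 8 has the lowest median on the first date (-0.26) and the second date (-0.28), and on the third date chromosome 1 (-0.22) is lower than chromosome 8 (-0.13). Chromosome 14 is the highest on all 3 dates.

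On the third date the lowest autosome was chromosome 1, with a median of -0.22, whose medians on the first and the second date were 0.07 and 0.00360. The levels in single libraries show from which side each value came. Each library's deviation is the log2 value of a gene minus its mean over the 6 libraries, taken as the median over a set of genes minus that over the other autosomes. For members with a mean of at least 50, the deviation in the order of the dates was 0.17, 0.19 and 0.05 for R1, and it was -0.15, -0.09 and -0.11 for HN. The other chromosome 8 genes gave 0.16, 0.20 and -0.03 in R1 and -0.11, -0.08 and -0.14 in HN. The 2 lines did not overlap in either set, and R1 replicate 3 was the R1 library nearest to the HN libraries. Over all tested members, R1 replicate 3 was at -0.11, between the HN libraries (-0.19 to -0.00153), so there the lines overlapped, while the other chromosome 8 genes did not (-0.02 in R1 replicate 3 against -0.15 to -0.06 in HN).

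**Figure D3:**
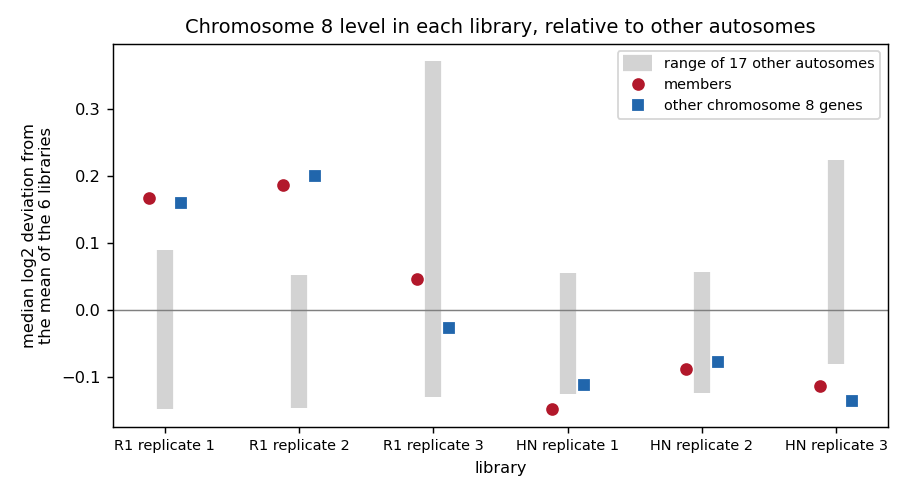
Median log2 deviation from the mean of the 6 libraries, relative to the other autosomes (y axis), in each library (x axis), for members and other chromosome 8 genes with a mean normalized count of at least 50. The grey bars span the medians of the 17 autosomes other than 8 and 14. R1 replicates 1 and 2 lie above the grey bars (0.17 and 0.19 for members), R1 replicate 3 lies within its bar (0.05), and in HN the members lie below the bar in replicates 1 and 3 and within it in replicate 2.

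Fits that left out 1 library kept its same-date partner and had no date term. The lines were then compared over unlike sets of dates, so these differences also hold differences between dates. Without R1 replicate 3, which also had the fewest reads, the members' median line difference went from -0.14 to -0.30. The intact pairs of the first and the second date had medians of -0.27 and -0.24. Without R1 replicate 2 the median line difference went to -0.08 and without HN replicate 2 to -0.21. The number of members below 0 ran from 32 to 44 over the 6 fits that left out 1 library each. The median was below 0 in all 6.

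Along the chromosome the difference was of 1 sign in nearly every stretch. In windows of 10 Mb, the median of the mean difference over all tested genes was below 0 in 13 of 13, from -0.33 in window 12 (110 to 120 Mb) to -0.13 in window 4 (30 to 40 Mb). On the first date the window medians ran from -0.37 to -0.08 and on the second from -0.41 to -0.16, with 13 of 13 below 0 on each. On the third date they ran from -0.27 (window 10) to 0.05 (window 4), with 12 of 13 below 0. Window 6 held only 13 tested genes, and leaving it out left 12 of 12 below 0. On other autosomes, the share of such windows with at least 20 genes below 0 ran from 0% on chromosome 14 (8 windows) to 91.7% on chromosome 6 (11 of 12 windows), whose lowest window was at -0.30.

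**Figure D4:**
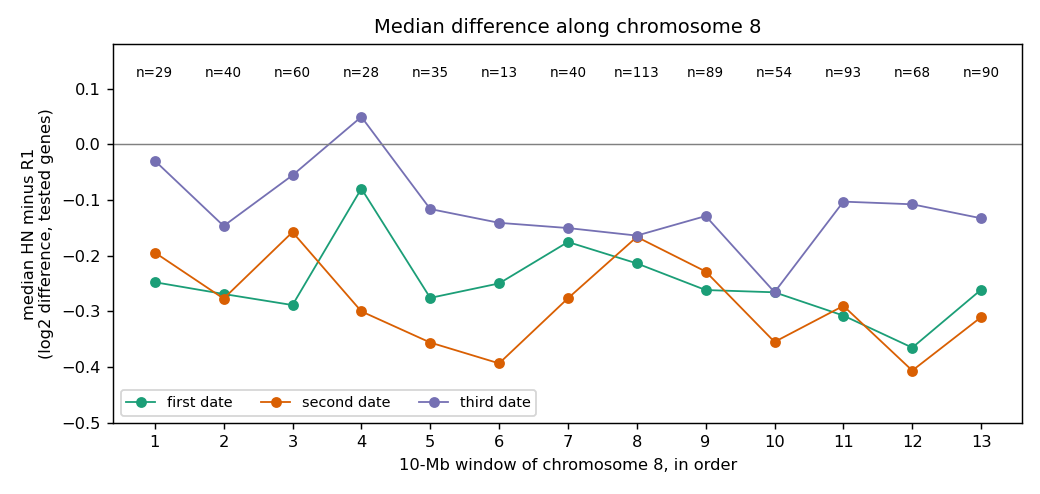
Median HN minus R1 log2 difference (y axis) of the tested genes in each of 13 windows of 10 Mb along chromosome 8 (x axis, window 1 nearest the start), with 1 line for each collection date and the number of genes above each window. The lines of the first and the second date are below 0 in every window, and that of the third date is above 0 in window 4 (0.05) alone.

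Neighbouring members nevertheless differed. Between members next to each other in the list, the mean difference changed by a median of 0.24. The largest change was 0.62, from Cyld at -0.03 to Sall1 at -0.65, with both genes in window 9. Single genes spread about as much elsewhere. With a mean of at least 50, the quartiles lay 0.34 apart for members, 0.30 for other chromosome 8 genes and 0.32 for the other autosomes. These steps are thus not read as unevenness of chromosome 8. The 3 members of window 12 (Sf3b3, Cog4 and Aars) had a median of -0.40, and the 3 of window 13 (Cdt1, Fanca and Egln1) one of -0.05, while the medians over all genes of these windows were -0.33 and -0.24.

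**Figure D5:**
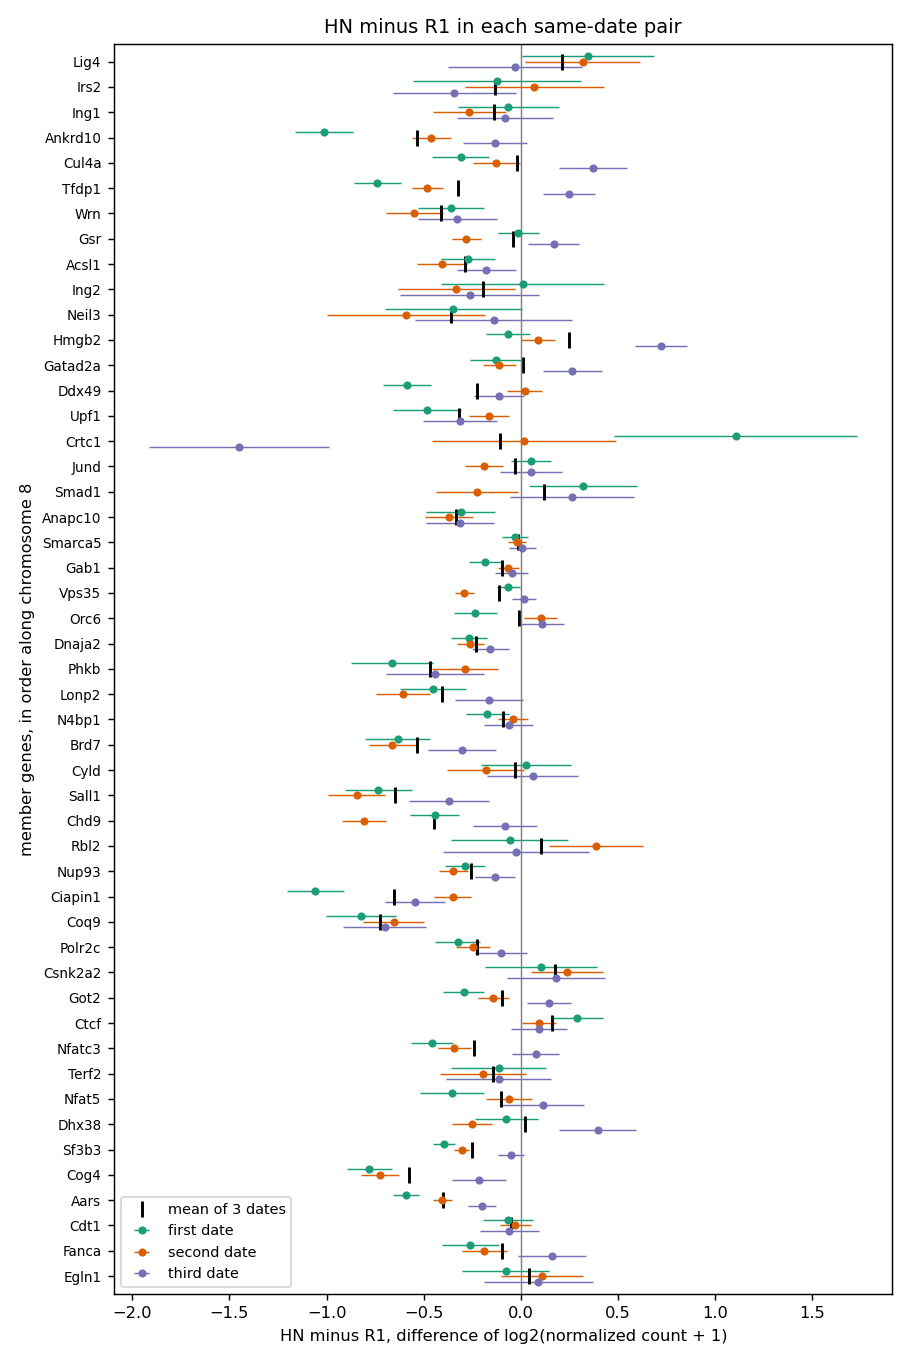
HN minus R1 log2 difference (x axis) of the 49 tested members in order along chromosome 8 (y axis), with 1 point per collection date, bars of 1 counting standard error, and a black tick at the mean of the 3 dates. Most points of the first and the second date lie to the left of 0, Coq9 and Sall1 lie left of 0 on all 3 dates, and the points of Crtc1 spread from -1.45 to 1.10.

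Of the 11 members in replication, cell cycle and DNA repair, 9 had a mean difference below 0, with a median of -0.10. The lowest was Wrn, a helicase that helps restart stalled replication forks, with normalized counts of 189, 169 and 135 in R1 and 147, 116 and 107 in HN. HN was below R1 on each date, although R1 replicate 3 lay under HN replicate 1, and the mean difference was -0.41 ± 0.12 (SD of 3 pairs). The highest was Lig4, the ligase that seals broken ends in non-homologous end joining, with 36.2, 31.1 and 43.1 in R1 and 46.2, 39.0 and 42.2 in HN. Its lines overlapped, and its mean difference of 0.21 ± 0.21 rested on 32 to 55 reads per library.

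Neil3, a glycosylase that removes oxidized bases (-0.36), Anapc10, a subunit of the anaphase-promoting complex (-0.33), and Tfdp1, the partner of E2F factors (-0.32), were the next lowest of this group. Anapc10 had nearly the same value on each date (-0.31, -0.37 and -0.31), while Tfdp1 went from -0.74 and -0.48 to 0.25 on the third date. Terf2, a telomere-binding protein, was at -0.14, and Fanca, of the Fanconi anemia repair pathway, was at -0.10. The remaining 4 were near 0 or above it. These were Cdt1 (-0.05) and Orc6 (-0.00869), both needed to load the replicative helicase, Cul4a, a ubiquitin ligase scaffold (-0.02), and Rbl2, a retinoblastoma relative (0.10). Of the 7558 exon bases of Rbl2, 1585 overlap other annotated genes. For Tfdp1, 16.8% of the 50-base words in its exons also occur in annotated transcripts of other genes. The reads of Rbl2 and Tfdp1 are thus less certain.

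Among the 15 tested members that act on chromatin and transcription, 11 were below 0, with a median of -0.11. Sall1, a zinc finger repressor that is active in mESCs, was the lowest. Its normalized counts were 219, 193 and 137 in R1 and 131, 107 and 106 in HN. Every HN library was below every R1 library, and the mean difference was -0.65 ± 0.25. Brd7, a bromodomain subunit of the PBAF remodeler, had the same pattern with 221, 264 and 181 in R1 and 142, 167 and 146 in HN, a mean difference of -0.53 ± 0.20. Chd9, a chromodomain remodeler, followed at -0.44, with -0.44, -0.81 and -0.08 on the 3 dates.

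Hmgb2, an abundant protein that bends DNA, was the highest of all members. It had 386, 385 and 228 in R1 and 369, 410 and 376 in HN. Only R1 replicate 3 stood apart, and the differences of the 3 dates were -0.07, 0.09 and 0.72, a mean of 0.25 ± 0.42. For Hmgb2, 18.7% of the 50-base words of its exons also occur in annotated transcripts of other genes. Ctcf, which organizes chromatin loops, had 244, 388 and 230 in R1 and 298, 414 and 246 in HN. HN was above R1 on all 3 dates, by 0.29, 0.09 and 0.09, although the lines overlapped. Smad1, which carries BMP signals to the nucleus, had 55.4, 74.0 and 45.8 in R1 and 69.4, 63.1 and 55.2 in HN, with HN higher on the first and the third date and lower on the second (0.12 ± 0.30).

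The rest of this group lay between -0.24 and 0.01. Nfatc3 (-0.24) and Nfat5 (-0.10) are factors of the NFAT family, Polr2c (-0.23) is a subunit of RNA polymerase II, and Ing1 (-0.14) and Ing2 (-0.20) read a histone mark for deacetylase complexes. Crtc1, a coactivator of CREB, had a mean of -0.11 but differences of 1.10, 0.02 and -1.45, from 8 to 32 reads per library. Jund (-0.03), of the AP-1 family, Smarca5 (-0.01), the motor of the ISWI remodelers, and Gatad2a (0.00849), of the NuRD complex, were close to 0. Smarca5 was also the steadiest member, with -0.03, -0.02 and 0.00637 on the 3 dates. Reads are less certain for Jund, of whose exon bases 52.6% overlap another annotated gene. The same holds for Smarca5, with 28.2% of its 50-base words found in transcripts of other genes. For Polr2c these shares are 18.1% and 11.2%.

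In RNA processing and translation, 4 of 5 members were below 0, with a median of -0.25. Aars, the alanyl-tRNA synthetase, had 1326, 1551 and 977 in R1 and 880, 1171 and 850.2 in HN. HN was lower on each date and the lines overlapped through R1 replicate 3, with a mean of -0.40 ± 0.20. Dhx38, a splicing helicase, was the highest, with 182, 314 and 116 in R1 and 173, 263 and 153 in HN. It was lower in HN on the first and the second date and higher on the third (0.02 ± 0.33). Upf1, the helicase of nonsense-mediated decay (-0.32), Sf3b3, of the U2 snRNP (-0.25), and Ddx49, a helicase of ribosomal RNA processing (-0.23), lay between them. The exons of Ddx49 overlap those of other genes over 29.8% of their bases. For Aars, 13.5% of its 50-base words also occur in annotated transcripts of other genes.

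Metabolism and redox had the lowest median of the role lists with more than 2 members (-0.35), with 7 of 8 members below 0. Coq9, which supports ubiquinone synthesis in mitochondria, had 208, 157 and 142 in R1 and 117, 99.2 and 86.6 in HN. The lines did not overlap, and the differences were -0.82, -0.65 and -0.70, so that HN stood at 59.8% of R1 on average. Its mean of -0.73 ± 0.09 was the lowest of all members. Ciapin1, which helps to assemble cytosolic iron-sulfur proteins, had 348, 380.2 and 253 in R1 and 167, 298 and 173 in HN. HN was lower on each date, by 1.06, 0.35 and 0.55 on the log2 scale, with a mean of -0.65 ± 0.36.

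Egln1, the oxygen-sensing prolyl hydroxylase, was the highest of this group, with 99.0, 65.1 and 62.0 in R1 and 93.7, 70.2 and 66.1 in HN. Its lines overlapped, and its mean was 0.04 ± 0.10. Phkb, the regulatory subunit of phosphorylase kinase (-0.47), Lonp2, the protease of peroxisomes (-0.41), and Acsl1, which activates fatty acids (-0.29), were below 0 on all 3 dates. Got2, the mitochondrial aspartate aminotransferase (-0.10), and Gsr, glutathione reductase (-0.04), were above 0 on the third date. For Got2, 16.8% of its 50-base words also occur in annotated transcripts of other genes.

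Of the 4 signalling members, 3 were below 0, with a median of -0.06. Irs2, an adaptor of the insulin receptor, had 26.6, 22.9 and 56.6 in R1 and 24.3, 24.1 and 44.4 in HN. The third-date library was the highest of each line, and the mean difference was -0.13 ± 0.21. Csnk2a2, a catalytic subunit of casein kinase 2, had 54.3, 79.9 and 75.5 in R1 and 58.4, 94.3 and 85.6 in HN, higher in HN on each date although the lines overlapped (0.17 ± 0.07). Gab1, a docking protein of receptor kinases (-0.10), and Cyld, a deubiquitinase (-0.03), were between them.

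All 4 members in transport and folding were below 0, with a median of -0.24. Cog4, a subunit of the Golgi tethering complex COG, had 481, 431 and 286 in R1 and 279.8, 260.1 and 246 in HN. The lines did not overlap, and the differences were -0.78, -0.72 and -0.22 (mean -0.57 ± 0.31). Vps35, the core of the retromer that returns cargo from endosomes, was the highest with 1374, 1412 and 1338 in R1 and 1314, 1154 and 1353 in HN. Its lines overlapped, and its mean was -0.11 ± 0.16. Nup93, of the nuclear pore (-0.26), and Dnaja2, a co-chaperone (-0.23), were below 0 on all 3 dates.

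Of the 2 members outside these roles, Ankrd10, an ankyrin repeat protein, had 328, 349.9 and 191 in R1 and 162, 254 and 174 in HN. Its differences shrank from -1.01 on the first date and -0.46 on the second to -0.13 on the third (mean -0.54 ± 0.45). N4bp1, a ribonuclease that acts on viral and immune RNAs, had 408, 524 and 325 in R1 and 361, 510.4 and 311 in HN, slightly lower in HN on each date (-0.09 ± 0.07).

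Members at 3 places lie head to head, with starts that overlap on opposite strands. Ciapin1 (minus strand, chr8:94819804-94838358) and Coq9 (plus strand, chr8:94838321-94854895) share 38 bases, and were the 2 lowest members, at -0.65 and -0.73. Sf3b3 (minus strand, chr8:110810239-110846787) and Cog4 (plus strand, chr8:110846600-110882227) share 188 bases but stood at -0.25 and -0.57. Vps35 (minus strand, chr8:85260392-85299802) and Orc6 (plus strand, chr8:85299632-85308278) share 171 bases and stood at -0.11 and -0.00869. A shared start thus went with values within 0.11 of each other at 2 places and with a gap of 0.32 at the third. The library kit does not mark strand, so reads in the shared bases cannot be told apart between the genes of a pair.

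The windows around the starts of the plus strand genes of these 3 pairs are shown because 2 members begin in or beside each, and they span the range from the lowest members to those near 0. Each runs from 250 bases before to 50 after a RefSeq start on GRCm38.p6, is read 5′ to 3′ on the plus strand, and has matches on either strand to the motifs AAGATGG (YY1), CCGGAAG (ETS), CCAAT (NF-Y) and GGGCGG (SP and KLF factors) in capitals. None of these motifs overlaps another in the windows shown.
Coq9 (chr8:94838163-94838462): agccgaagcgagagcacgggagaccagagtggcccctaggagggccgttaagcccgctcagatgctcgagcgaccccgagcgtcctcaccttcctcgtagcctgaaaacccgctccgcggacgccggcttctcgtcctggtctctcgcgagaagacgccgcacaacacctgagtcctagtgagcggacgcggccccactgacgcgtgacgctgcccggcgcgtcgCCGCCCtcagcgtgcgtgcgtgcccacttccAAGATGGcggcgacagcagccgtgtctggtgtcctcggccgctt
Cog4 (chr8:110846774-110847073): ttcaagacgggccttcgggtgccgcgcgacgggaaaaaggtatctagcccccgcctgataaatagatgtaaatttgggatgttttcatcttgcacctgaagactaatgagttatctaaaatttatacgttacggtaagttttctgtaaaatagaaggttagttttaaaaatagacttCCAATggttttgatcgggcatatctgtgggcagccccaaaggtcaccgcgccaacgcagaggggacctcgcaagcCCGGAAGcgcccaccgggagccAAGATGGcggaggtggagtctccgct
Orc6 (chr8:85299382-85299681): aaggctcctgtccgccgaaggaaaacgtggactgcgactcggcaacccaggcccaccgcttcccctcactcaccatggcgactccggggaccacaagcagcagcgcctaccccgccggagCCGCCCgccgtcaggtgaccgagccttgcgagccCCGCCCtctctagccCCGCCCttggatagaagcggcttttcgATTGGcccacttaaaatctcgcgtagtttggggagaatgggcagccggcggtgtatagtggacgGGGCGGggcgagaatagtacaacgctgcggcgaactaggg

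These windows hold 39, 19 and 30 CpG sites in the order shown. Coq9 has 1 match each to the YY1 and SP motifs, Cog4 has 1 each to the YY1, ETS and NF-Y motifs, and Orc6 has 4 to the SP motif and 1 to the NF-Y motif. RefSeq windows were found for 46 of the 50 members, 66 windows in all. The YY1 motif was in 12.1% of these (6.34% of 32851 mouse windows), the ETS motif in 16.7% (8.86%), the NF-Y motif in 40.9% (37.4%) and the SP motif in 71.2% (35.7%). The members' windows had a median of 65.2% G or C and 27 CpG sites, against 52.7% and 7 for all windows, and the part of this composition in the motif shares was not tested. A match marks letters only, and no binding was measured.

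Many of these proteins work in complexes whose other subunits are encoded elsewhere. Of 130 listed genes whose products share a complex or family with a member, 122 lie outside chromosome 8. Their mean difference had a median of 0.04 with 39.3% below 0, at a median normalized count of 220. The 2794 genes of the other autosomes with a mean of at least 200 had a median of 0.03 with 44.2% below 0. The 8 listed genes on chromosome 8 itself had a median of -0.31 and were all below 0, from -0.61 for Cog2 to -0.09 for Mcm5. The COG complex, which tethers vesicles at the Golgi, had Cog4, Cog2 and Cog8 on chromosome 8 at -0.57, -0.61 and -0.45, and Cog1, Cog3, Cog5, Cog6 and Cog7 on 5 other chromosomes at 0.48, 0.04, -0.46, -0.33 and -0.02. Around Coq9, 4 of 6 partners elsewhere were below 0 (median -0.11, from -0.48 for Coq5 to 0.45 for Coq7), and around Sf3b3, 2 of 5 were (median 0.05). The 11 partners of Polr2c outside chromosome 8 were mostly below 0 as well (9 of 11, median -0.16), while Polr2a, the largest subunit, was at 0.55. No test was run on these lists, which were drawn up with the values of the chromosome known.

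The collection date itself is a comparison that the choice of members did not use, because each date holds 1 library of each line. This comparison averages the 2 lines, so a change in R1 alone also enters it. On chromosome 8, R1 replicate 3 was the R1 library nearest to the HN libraries, as given above. The third date was compared with the mean of the first and the second in limma, with line as a term, on log2(normalized count + 1) with p-values adjusted over 14276 genes. Of the 49 members, 25 were lower at an adjusted p under 0.05 (background 23.2%) and 1 was higher (background 17.8%). All 25 had a mean normalized count of at least 50, as did 43 members in all, and in that class 39.6% of 7659 genes were lower. The members' median date difference was -0.34, against -0.07 over all tested genes, and -0.37 against -0.26 in that class. The other chromosome 8 genes had -0.21 over 703 tested genes and -0.37 over 403 genes of that class, so the value in that class was not particular to the members. This count depended on the model, the scaling and single libraries. With no term for the line, 3 members were lower (Gsr, Jund and Nfat5) and 1 higher (Irs2). After quantile normalization 8 members were lower (Jund, Nfat5, Dhx38, Cdt1, Gsr, Gatad2a, Upf1 and Sf3b3) and 2 higher (Irs2 and Vps35), with a median of -0.10, and without R1 replicate 3 the counts were 10 and 0. Without R1 replicate 2, 14 were lower and 1 higher. No share over all tested genes is given for these alternatives, so their counts are not set against a background. Over the whole table, 1995 genes were higher and 213 lower when an absolute log2 difference above 1 was required as well. After quantile normalization these were 680 and 695.

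With the added limit of an absolute log2 difference above 1, 1 member passed. In limma, Irs2 was higher on the third date by 1.01 (SE 0.26, adjusted p = 0.0028), where 14% of all tested genes passed in this direction. Both lines showed it, with 56.6 in R1 replicate 3 and 44.4 in HN replicate 3 and at most 26.6 in the other 4 libraries. Irs2 had a mean normalized count of 33.2, and all tested genes from 5 to 50 had a median date difference of 0.55. With a mean of at least 50 as the filter, 21 of 7659 genes passed in this direction. In 0 members the limit was passed in the lower direction (background 1.49%). Over the alternatives in which Irs2 was tested, its adjusted p ran from 0.000858 to 0.102, the latter without R1 replicate 3.

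Jund had the largest fall of the members in limma, by 0.92 on the log2 scale (SE 0.12, adjusted p = 4.35e-07), with 440, 339 and 195 in R1 and 455, 297 and 203 in HN. The third-date library was the lowest of each line, and HN minus R1 ran from -0.19 to 0.05 over the dates. Nfat5 (-0.76, adjusted p = 8.49e-05), Dhx38 (-0.76, adjusted p = 8.27e-05), Cdt1 (-0.76, adjusted p = 5.90e-06) and Gsr (-0.72, adjusted p = 1.11e-05) were the next lowest in this limma contrast. Without the line term Dhx38 (adjusted p = 0.0698) and Cdt1 (adjusted p = 0.0612) did not pass in limma, while over all alternatives the highest adjusted p was 0.0265 for Jund, 0.0353 for Nfat5 and 0.0351 for Gsr. For Cdt1, which licenses replication origins, the normalized counts were 292, 482 and 222 in R1 and 279, 473 and 213 in HN. HN minus R1 ran from -0.07 to -0.03 over the dates, and the third-date library was again the lowest of each line. For Gsr, they were 425, 596 and 274 in R1 and 421, 489.8 and 308 in HN, lowest on the third date in both lines as well.

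Of the 5 members with the lowest HN minus R1 difference, Sall1 (-0.37, adjusted p = 0.0393), Cog4 (-0.40, adjusted p = 0.00926), Ciapin1 (-0.44, adjusted p = 0.00781) and Ankrd10 (-0.52, adjusted p = 0.00368) fell on the third date in limma, and Coq9 had a difference of -0.33 that did not pass (adjusted p = 0.0653). None of these 5 passed after quantile normalization, where the differences of the first 4 ran from -0.22 to -0.11. The contrast averages the lines, and the third-date library was the lowest of R1 for all 5. In HN, Ciapin1 (173) and Ankrd10 (174) were above their first-date values (167 and 162). Sall1 (106 against 107 on the second date) and Cog4 (246 against 260.1) were only slightly lower there. Both third-date libraries also detected more genes with few reads, as given above, and the part of that shift in the members' date values was not tested.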

How the data were processed

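Total RNA of 3 batches of each line, collected on different dates, was made into libraries with the Illumina TruSeq RNA Library Preparation Kit v2, which does not mark strand, and sequenced as paired-end reads. The deposited signal values are counts normalized by the authors, who used STAR for alignment to mm10/GRCm38, Picard to drop PCR duplicates, HTSeq for reads on exons and DESeq2 for the size factor of each library (versions not given in the sources used here). Values were whole multiples of 1 read in 100% of cases (tolerance 0.01), so whole reads were recovered for depth, counting errors and the count-based alternatives.

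Genes with a mean of at least 5 were tested on log2(value + 1) with limma 3.58.1 (R 4.3.3) with Benjamini-Hochberg adjustment. A gene was called at an adjusted p under 0.05 and an absolute log2 difference above 1. Replicate numbers pair the libraries because the labels give both libraries of a number the same collection date. The date contrast (the third date minus the mean of the first and the second) had line as a term. Alternatives were the replicate block, edgeR 4.0.16 and DESeq2 1.42.0 on recovered reads, other pseudocounts, filters and scalings, and leaving out each library. P-values measure the spread between these libraries only, and an exact permutation test of 3 against 3 libraries cannot go below 0.1. Counting errors cover counting only.

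The fits were tested on simulated data. The members, role lists, partners and markers were chosen with earlier results of these data known. Values in every library are given for the lowest and highest member of each role list, the 5 lowest and the 5 highest members, members called between dates and Htt; Irf2, Brd7, Jund, Cdt1 and Gsr were added after their values were seen. Positions are from GENCODE M21 (GRCm38), start windows from RefSeq GRCm38.p6. Unused columns of per-sample values numbered 0.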

Additional observations from a re-analysis of the deposited data

Results flagged for a closer look

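In 2 of the 49 tested members, HN was below R1 on 1 date and above it on another, each by more than 1.96 counting standard errors. Cul4a had a log2 difference of -0.31 on the first date and 0.37 on the third. Dhx38 had one of -0.25 on the second date and 0.39 on the third. For both genes R1 replicate 3, the library with the fewest reads, had the lowest normalized count (146 for Cul4a and 116 for Dhx38). No share of all tested genes with such a change is given beside this count. With 1 library per line and date, the difference between dates was not tested, and counting error does not cover the spread between cultures.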

How the results depend on the processing

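The members' median HN minus R1 was below 0 in all 17 alternatives. It ran from -0.085 (without R1 replicate 2) to -0.30 (without R1 replicate 3) when 1 library was left out, and from -0.19 to -0.13 under the others, against -0.14 as reported. Leaving out 1 library broke a same-date pair, so those values also hold differences between dates. Relative to all tested genes, the range when 1 library was left out was -0.074 to -0.29. Over the single members, 27 were below 0 and 2 above 0 in every alternative that tested them (Lig4, Ing2 and Neil3 were not tested with a mean of at least 50). All 13 windows of 10 Mb stayed below 0 in each of them. The number of genes called between the lines was 35 as reported, 278 with the replicate block, 284 in edgeR with the replicate block, 80 in DESeq2, and from 8 (without R1 replicate 1) to 55 (without R1 replicate 3) when 1 library was left out, with 13 without HN replicate 1. The replicate block brought no member past the threshold. Between dates, 2208 genes were called as reported, 858 with a pseudocount of 10, 3377 with no filter, 144 with a mean of at least 50, 1375 after quantile normalization, 1125 without the line term, and from 760 (without R1 replicate 3) to 2688 when 1 library was left out. The 1 member called between dates, Irs2, was not called (0 members) with a pseudocount of 10, with a mean of at least 50 (Irs2 was then not tested) or after quantile normalization (difference 0.99). There were 2 members called in edgeR and with no filter, and from 0 to 3 when 1 library was left out, with 0 without R1 replicate 2 (Irs2 0.93, adjusted p = 0.0219 in limma) or R1 replicate 3 (Irs2 0.85, adjusted p = 0.102 in limma), 2 without HN replicate 1 and 3 without HN replicate 3. The causes were not tested. Read depth limits the single members more than their median, as 1 read was worth up to 1.35 normalized counts. The absence of replicates within a date limits any statement on how the dates differ.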
